A study of Mus musculus with 27 samples.

Results

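The 9 genes described here, Cma1, Tpsb2, Tpsab1, Mcpt4, Cpa3, Hdc, Il1rl1, Gzmb and Fcer1a, encode granule proteases, the histamine-forming enzyme and receptors of mast cells. They were taken by symbol from a table of 24418 genes. They were chosen by their FPKM in Perinatal BM, where genes of this kind stood far higher than in E16.5 FL, so the values of the 9 genes in that contrast, and in any other that uses those libraries, are given as a description with no test. Counts of other genes called there are a description too, since genes of the same kind were in view when the 9 were chosen. RNA sequencing was run on HSPCs (stem and progenitor cells of the blood) purified from C57BL/6 mice, with 27 libraries in 9 groups of 3. The embryonic groups were labelled E12.5 PL, E12.5 FL and, later, E16.5 FL. The BM groups were Perinatal BM and 5 groups at ages of 1, 3, 4, 6 and 8 weeks, written 1w BM to 8w BM. E12.5 and E16.5 are embryonic days, and FL and BM are the usual short forms of fetal liver and bone marrow. The labels do not say what PL stands for. No age was sampled in both FL and BM, so in comparisons between them organ and age cannot be told apart. There, rose and fell mean only higher and lower in the group named first. All 9 groups share the strain and the cell type label, and no allele or treatment is given. The sources used here give neither the sorting markers nor the perinatal day nor whether the 3 libraries of a group came from separate animals, so p-values measure only the spread between libraries.

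Mast cells arise from haematopoietic progenitors and store neutral proteases, bound with histamine to the proteoglycan serglycin, in cytoplasmic granules. Crosslinking of IgE on the high-affinity receptor, whose IgE-binding chain is Fcer1a, or IL-33 acting on the receptor encoded by Il1rl1, makes them release or synthesise mediators. Carboxypeptidase A3, histidine decarboxylase and Il1rl1 are also known in progenitors and basophils, and granzyme B is best known from cytotoxic lymphocytes.

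Values are FPKM (fragments scaled to transcript length and to library size), which allow levels to be compared between genes. They summed to 519810 to 763033 per library. Counts are not in the files used, so the depth is unknown. From the spacing of the lowest values depth was estimated at 0.687 to 1.58 relative to the median library. One such step was 0.105 to 0.136 FPKM for Cma1, Tpsb2, Tpsab1, Mcpt4 and Fcer1a at the median depth, so their values below about 1 FPKM stand at few such steps. All 10 stem and progenitor markers examined, among them Kit, Cd34 and Ptprc, averaged at least 1 FPKM in 8 groups, and 9 of 10 did so in E12.5 PL.

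The genes lie on 5 chromosomes (RefSeq, GRCm38.p6). Cma1 (chr14:55941451-55944675), Mcpt4 (chr14:56059744-56062310) and Gzmb (chr14:56258836-56262334), all on the minus strand, share the chymase and granzyme cluster, and Tpsab1 (chr17:25343245-25345562, minus) and Tpsb2 (chr17:25366308-25368096, plus) the tryptase cluster. Cpa3 (chr3:20215616-20242209) and Hdc (chr2:126593659-126624025) are on the minus strand. Il1rl1 (chr1:40404864-40465418, plus) and Fcer1a (chr1:173221269-173227232, minus) are far apart on chromosome 1. Promoter windows from RefSeq, reaching from 250 bases before to 50 bases after a start site, matched 7 of the 9 genes with 8 windows. Il1rl1 had 2 windows, both inside its annotated span. Below are the 250 bases before the start of 2 chymases of the same cluster whose ratio differed between 1w BM and Perinatal BM, and of Cpa3 and Il1rl1, whose levels varied together. Capitals mark the GATA-factor letters AGATAA or TGATAA, searched on both strands.
Cma1 (chr14:55944676-55944925, minus): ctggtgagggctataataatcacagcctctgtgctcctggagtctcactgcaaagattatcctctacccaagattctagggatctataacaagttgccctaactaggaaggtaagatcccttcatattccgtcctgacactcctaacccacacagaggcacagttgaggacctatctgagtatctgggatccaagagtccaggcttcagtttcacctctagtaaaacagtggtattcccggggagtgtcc
Mcpt4 (chr14:56062311-56062560, minus): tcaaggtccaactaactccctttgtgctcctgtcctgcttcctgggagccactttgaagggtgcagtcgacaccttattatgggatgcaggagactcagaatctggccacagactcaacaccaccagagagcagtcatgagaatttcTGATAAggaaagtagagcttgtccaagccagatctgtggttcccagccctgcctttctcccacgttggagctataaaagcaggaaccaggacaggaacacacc
Cpa3 (chr3:20242182-20242431, minus): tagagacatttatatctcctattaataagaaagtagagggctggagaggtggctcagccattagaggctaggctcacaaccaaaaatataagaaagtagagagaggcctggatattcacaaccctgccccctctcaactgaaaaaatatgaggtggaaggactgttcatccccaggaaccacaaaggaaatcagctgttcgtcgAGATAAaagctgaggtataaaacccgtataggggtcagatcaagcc
Il1rl1, first window (chr1:40429320-40429569, plus): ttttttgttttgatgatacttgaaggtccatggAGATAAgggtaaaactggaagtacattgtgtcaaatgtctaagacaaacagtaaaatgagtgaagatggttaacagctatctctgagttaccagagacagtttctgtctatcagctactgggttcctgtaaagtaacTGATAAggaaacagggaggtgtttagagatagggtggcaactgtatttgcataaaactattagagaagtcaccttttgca

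These letters occurred in the windows of 4 of the 7 genes, where Il1rl1 had 2 windows, both with a match. Of the 32851 mouse windows searched 18.6% held them, which is a share of windows and not of genes. Their first base lay 103 bases before the start in Mcpt4, 46 before in Cpa3, 92 before in Fcer1a, and 217 and 80 before in the first Il1rl1 window. The second Il1rl1 window held a match 103 bases before its start, on the other strand, as was the match of Fcer1a. The windows of Cma1, Hdc and Gzmb held neither form. The letters TATAAA, present in 13.6% of windows on either strand, began 32 bases before the Mcpt4 start and 31 before the Cpa3 start, and were absent from the Cma1 window. Of the E-box letters CATGTG (14.2% of windows) and CACGTG (7.15%), which MITF-type factors bind, only CATGTG occurred, 208 bases before the Fcer1a start. A match is a string of letters and not a shown binding site.

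All 9 genes had their highest level in Perinatal BM, and there the protease genes Cma1, Tpsb2, Mcpt4 and Cpa3 ranked among the abundant transcripts of the purified cells. Tpsab1 ranked only 2037th, 4011th and 1536th of all genes in Perinatal BM libraries 1, 2 and 3, and Gzmb 1612th, 2081st and 694th. Cma1, which encodes the chymase-family mast cell protease 5, was at 793, 377 and 1148 FPKM in Perinatal BM libraries 1, 2 and 3, against 11.1, 4.18 and 0.781 FPKM in E16.5 FL. Tpsb2, the main tryptase of mouse mast cells, was at 986, 452 and 1108 FPKM in Perinatal BM and 18.4, 3.81 and 1.66 FPKM in E16.5 FL. Mcpt4, the main chymotrypsin-like chymase of mouse connective tissue mast cells, was at 335, 121 and 309 FPKM in Perinatal BM and 3.31, 1.46 and 0.134 FPKM in E16.5 FL. The 2 groups did not overlap for any of these proteases, and ranked by FPKM within a Perinatal BM library Tpsb2 stood 94th, 148th and 89th of all genes. Tpsab1 encodes a second tryptase and is annotated by RefSeq as a transcribed pseudogene, since the C57BL/6 allele yields no functional protein. It was at 43.2, 22.9 and 56.8 FPKM in Perinatal BM, against 0.198 FPKM in E16.5 FL library 1 and 0 in libraries 2 and 3. Tpsb2 and Tpsab1 are close paralogues, and how reads common to both were assigned is not given in the sources used here, so the split between them is uncertain.

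Cpa3, the granule metalloprotease carboxypeptidase A3, was at 716, 306 and 846 FPKM in Perinatal BM and 15.3, 7.95 and 3.89 FPKM in E16.5 FL. Hdc, which converts histidine to histamine, was at 256, 158 and 454 FPKM in Perinatal BM and 10.2, 5.79 and 4.49 FPKM in E16.5 FL. Gzmb, a serine protease that cleaves after aspartate, was at 52.9, 42.3 and 113 FPKM in Perinatal BM and 0.659, 0.730 and 0.249 FPKM in E16.5 FL. Again no Perinatal BM library reached down to the E16.5 FL range. Il1rl1, the IL-33 receptor, was at 52.6, 29.5 and 55.6 FPKM in Perinatal BM and 0.917, 0.816 and 0.412 FPKM in E16.5 FL. Fcer1a was the least abundant, at 6.95, 2.97 and 8.80 FPKM in Perinatal BM, against 0.125 FPKM in E16.5 FL library 1 and 0 in the others.

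The ratio of the Perinatal BM mean to the E16.5 FL mean was 144 for Cma1, 107 for Tpsb2, 156 for Mcpt4, 127 for Gzmb, 68.9 for Cpa3, 64.2 for Il1rl1 and 42.3 for Hdc. The E16.5 FL mean rested on library 1 for some of them. Without that library, an alternative added after seeing the data, the ratio was 312 for Cma1, 310 for Tpsb2, 320 for Mcpt4 and 105 for Cpa3. For Tpsab1 and Fcer1a, with 2 of 3 E16.5 FL libraries at 0, no ratio is given. Of the 9 genes, 9 stood higher in every Perinatal BM library than in any E16.5 FL library, where 18.7% of all 13350 genes tested did; the choice of the genes fixed this count. Summed, they held 0.287% to 0.671% of the FPKM of a Perinatal BM library, against 0.00221% to 0.0101% in E16.5 FL. In these bulk samples, more cells of a type and more RNA per cell cannot be told apart.

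In Perinatal BM and E16.5 FL the libraries ranked alike for most of the genes. Perinatal BM library 2 was the lowest for 9 of 9 genes and library 3 the highest for 8. In E16.5 FL, library 1 was the highest for 8 of 9 and library 3 the lowest for 7. The highest Perinatal BM library exceeded the lowest by 1.89-fold for Il1rl1 up to 3.05-fold for Cma1.

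**Figure D1:**
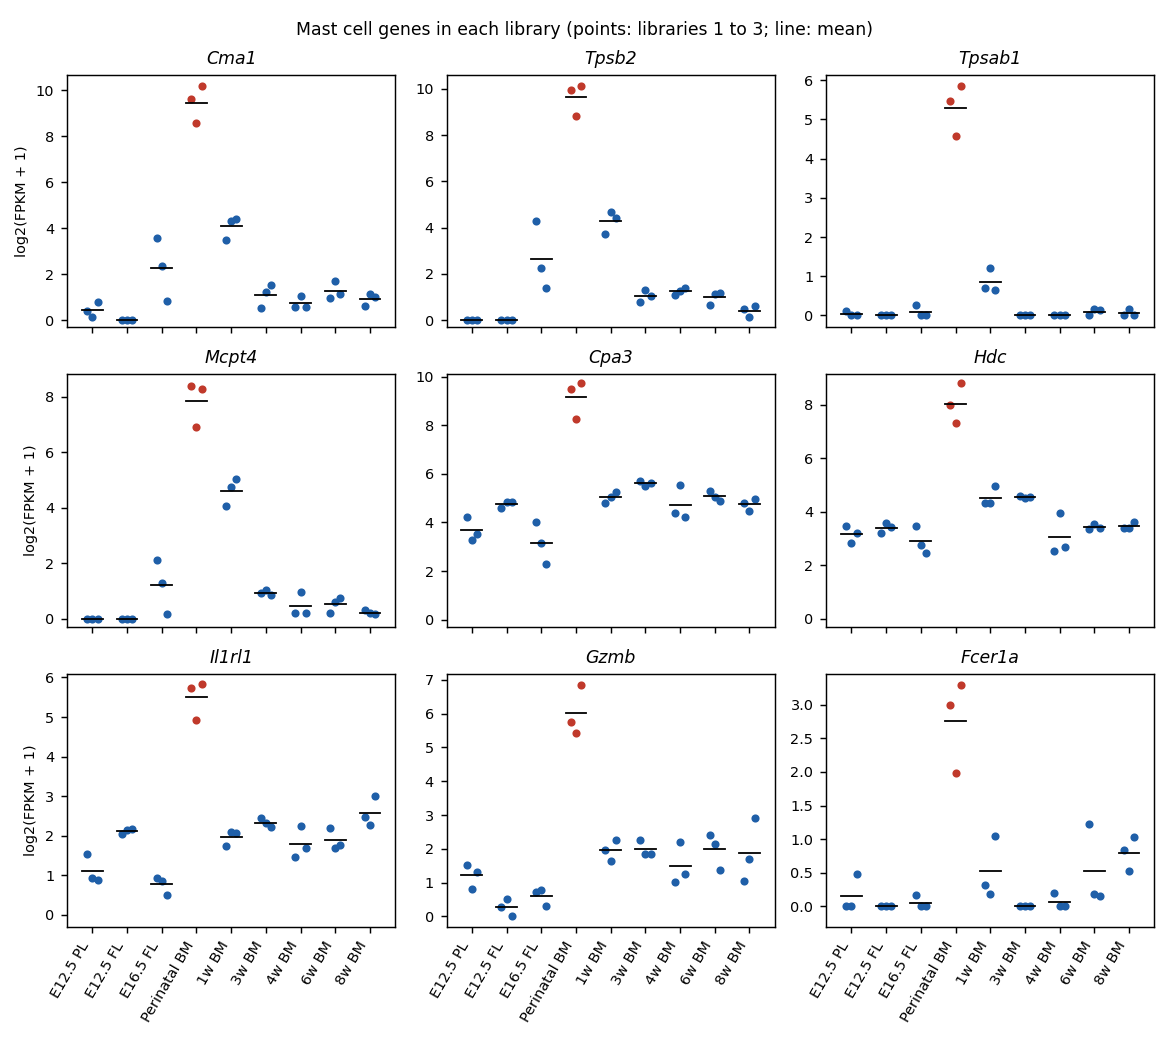
Level of each gene as log2(FPKM + 1) in every library, with groups in the order of age from left to right, points for libraries 1 to 3 and a line for the mean. Perinatal BM (red) lies above all other groups in each of the 9 panels, and the proteases Cma1, Tpsb2, Tpsab1 and Mcpt4 are next highest in 1w BM, whereas Cpa3, Hdc and Il1rl1 are present in all groups.

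At 1 week the levels were far lower than in Perinatal BM, and not by the same factor. Cma1 was at 10.3, 19.0 and 20.1 FPKM in 1w BM, 46.9-fold below its Perinatal BM mean, and Tpsb2 was at 12.3, 24.6 and 20.2 FPKM, 44.6-fold below. Mcpt4 was at 15.6, 25.9 and 31.5 FPKM, 10.5-fold below. The mean was 48.9-fold lower for Tpsab1, 23.5-fold for Gzmb, 19.5-fold for Cpa3, 15.7-fold for Il1rl1 and 12.8-fold for Hdc. Fcer1a, at 0.252, 0.135 and 1.08 FPKM in 1w BM, was 12.8-fold below its Perinatal BM mean and, without 1w BM library 3, 32.3-fold. For 9 of 9 genes no 1w BM library reached the Perinatal BM range, as for 16.8% of all genes tested; the Perinatal BM libraries served to choose the genes, and nothing is read from the count.

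Among the chymases the change in proportion was clear in each library. Mcpt4 over Cma1 was 1.48 ± 0.105 in 1w BM (SD, n = 3, 1.37 to 1.57) and 0.337 ± 0.0783 in Perinatal BM (0.269 to 0.423). Mcpt4 was thus the more abundant of the pair in 3 of 3 1w BM libraries and the less abundant in 3 of 3 Perinatal BM libraries, and it was also the less abundant in 3 of 3 E16.5 FL libraries, at 0.298, 0.349 and 0.171. The ratio of Tpsb2 to Cma1 did not separate the groups, at 1.16 ± 0.146 in 1w BM and 1.14 ± 0.149 in Perinatal BM. Relative to Cpa3, Cma1 stood at 0.506 ± 0.110 in 1w BM and 1.23 ± 0.125 in Perinatal BM, and Tpsb2 at 0.590 ± 0.159 and 1.39 ± 0.0843 in the same groups. Mcpt4 and Hdc went the other way, at 0.747 ± 0.149 and 0.704 ± 0.113 of Cpa3 in 1w BM, against 0.409 ± 0.0532 and 0.470 ± 0.0975 in Perinatal BM. In all, 10 ratios were compared, and 5 had no overlap between the 2 groups, those of Mcpt4 to Cma1 and of Cma1, Tpsb2, Mcpt4 and Hdc to Cpa3. These 5 are not independent, since they share Cpa3, Mcpt4 and Cma1. Ratios of other gene pairs were not taken for comparison, so nothing is read from the count. The ratios of Il1rl1, Gzmb and Fcer1a to Cpa3 and of Tpsab1 to Tpsb2 overlapped. No test is given, since the Perinatal BM levels chose the genes.

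**Figure D2:**
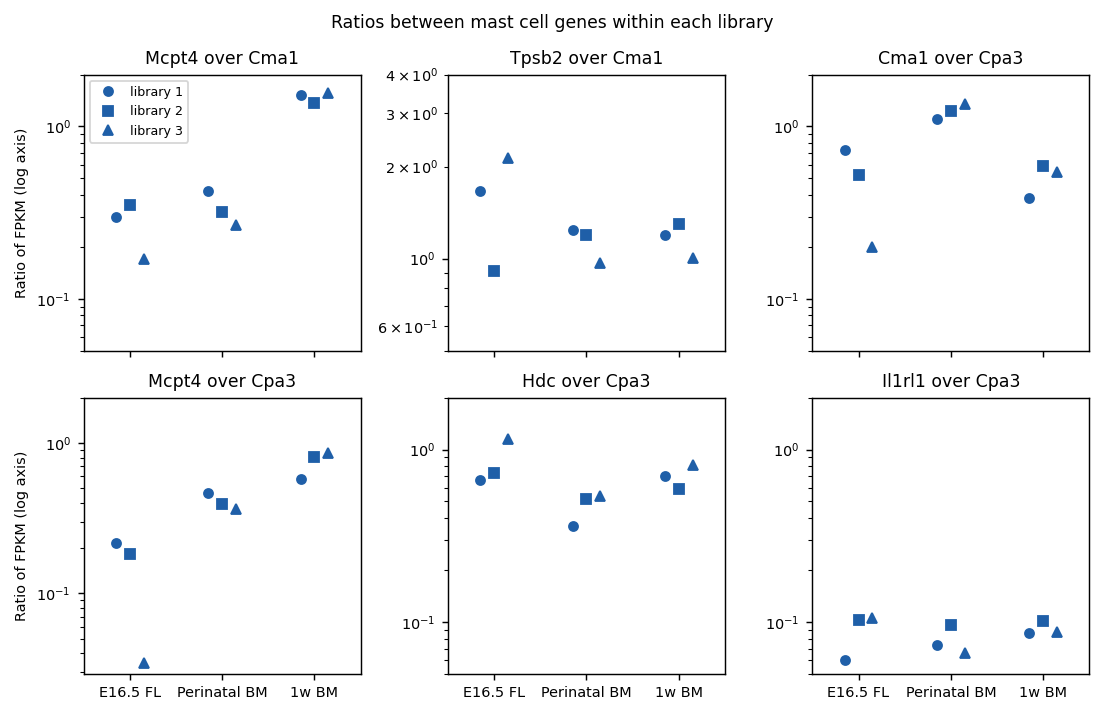
Ratio of the FPKM of 2 genes within each library, on log axes, for E16.5 FL, then Perinatal BM, then 1w BM, with 1 symbol per library. Mcpt4 over Cma1 lies above 1 in 3 of 3 1w BM libraries and below 0.5 in the other libraries shown, whereas Tpsb2 over Cma1 overlaps across groups.

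In the chymase and granzyme cluster, high levels in Perinatal BM were found at both ends and in part of the middle. Of its 16 annotated genes, the mucosal mast cell proteases Mcpt2 and Mcpt1 averaged 22.8 and 4.07 FPKM in Perinatal BM, and both were at 0 in every E16.5 FL library. Mcpt8, a basophil protease that lies between Mcpt4 and Ctsg, averaged 20.6 FPKM in Perinatal BM and 1.35 FPKM in E16.5 FL. In contrast to the mast cell proteases it stood at 19.1 FPKM in 1w BM and 13.9 FPKM in 8w BM. Ctsg, a neutrophil protease, was at 212 FPKM in Perinatal BM and highest in 1w BM, at 395 FPKM. Between Ctsg and Gzmb, the granzymes Gzmc, Gzmd, Gzme, Gzmf, Gzmg and Gzmn were at 0 in every Perinatal BM library.

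The tryptase cluster showed a similar division. Tpsg1, a membrane-anchored tryptase 1099 bases beyond Tpsb2, averaged 6.36 FPKM in Perinatal BM and 0.0324 FPKM in E16.5 FL. Prss34, a basophil and mast cell protease, averaged 1.03 FPKM in E16.5 FL, 21.8 FPKM in Perinatal BM and 10.5 FPKM in 1w BM, while Prss28 and Prss29 between it and Tpsab1 stayed below 0.3 FPKM in all groups. Among the neighbours of the genes outside these clusters, some were level between the groups and others were higher in Perinatal BM. Gyg, beside Cpa3, was at 55.8 FPKM in Perinatal BM and 49.7 FPKM in E16.5 FL, and Gabpb1, beside Hdc, at 39.4 FPKM in both groups. Atp8b4, on the other side of Hdc, was at 25.1 FPKM in Perinatal BM and 11.9 FPKM in E16.5 FL. Il18r1, a cytokine receptor gene 134 bases from Il1rl1, was at 2.06 FPKM in Perinatal BM and 0.211 FPKM in E16.5 FL. Of the other neighbours of Il1rl1, Il1r1 was at 12.2 and 4.25 FPKM in these groups, Il18rap at 19.7 and 10.4 FPKM, and Il1rl2 at 1.84 and 1.55 FPKM. The 4 nearest neighbours of Fcer1a were at 0 in both.

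**Figure D3:**
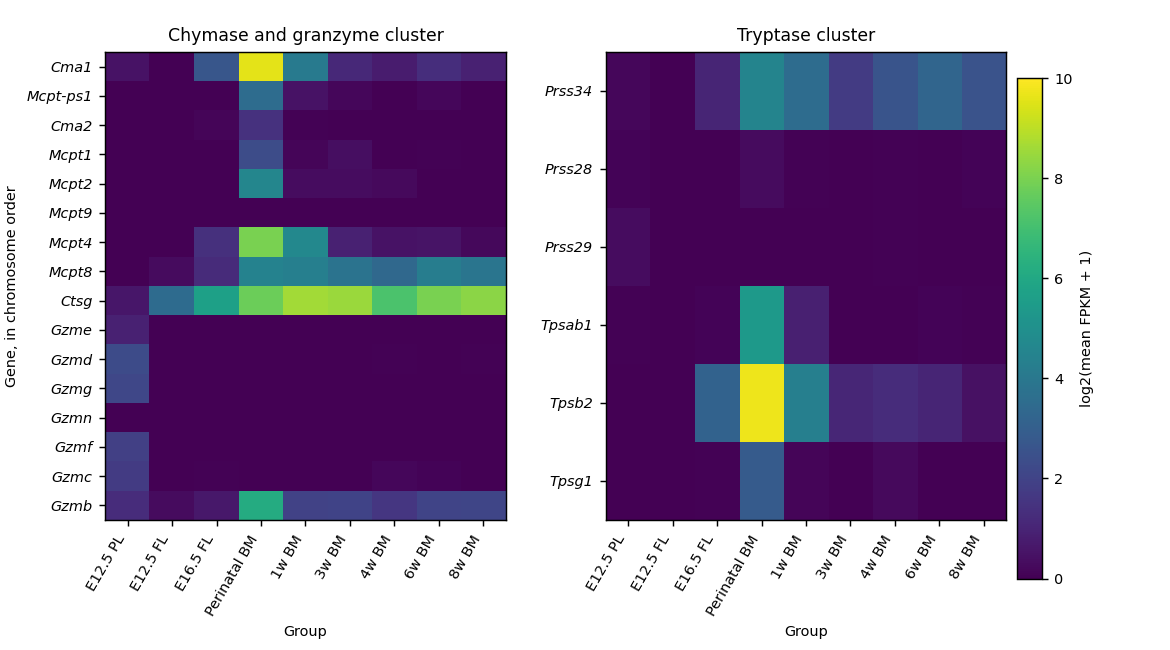
Mean level, as log2(mean FPKM + 1) on a colour scale, of the genes of the chymase and granzyme cluster (left) and the tryptase cluster (right), in chromosome order from top to bottom, with groups in the order of age from left to right. Cma1, Mcpt4, Tpsb2 and Tpsab1 are brightest in Perinatal BM, Mcpt8 and Ctsg remain bright in older BM, and most granzymes between Ctsg and Gzmb are dark except in E12.5 PL.

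The 7 comparisons that use neither Perinatal BM nor E16.5 FL were tested. The spread of each gene was estimated over all 27 libraries, Perinatal BM and E16.5 FL included. The standard errors and adjusted p-values are therefore not independent of the libraries that chose the genes. In 1w BM against E12.5 FL, which differ in organ as well as age, 6 of 9 genes were higher in 1w BM, where 20.6% of all genes tested were. Cma1, Tpsb2, Tpsab1 and Mcpt4 were listed at 0 in all 3 E12.5 FL libraries, so no fold is given. The limma adjusted p was 3.71e-07 for Cma1, 8.16e-08 for Tpsb2, 0.00123 for Tpsab1, at 0.627, 1.32 and 0.572 FPKM in 1w BM, and 1.34e-09 for Mcpt4. Tpsab1, counted in the 6, was tested only because of its level in Perinatal BM, so nothing is read from its p here or in later comparisons. Hdc was at 19.1, 18.9 and 30.0 FPKM in 1w BM and 8.29, 10.9 and 9.95 FPKM in E12.5 FL, a log2 difference of 1.12 ± 0.328 (limma adjusted p = 0.0094). This call was lost without 1w BM library 3 (limma adjusted p = 0.0556, in a range of 0.00173 to 0.0556 over the alternatives). Gzmb was at 2.89, 2.15 and 3.81 FPKM in 1w BM and 0.222, 0.439 and 0 FPKM in E12.5 FL (log2 difference 1.69 ± 0.397, limma adjusted p = 0.00176).

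Cpa3 and Il1rl1, which the early fetal HSPCs already contained, did not pass that test. Tpsab1 met the filter on low values only through Perinatal BM. Fitted and filtered without the Perinatal BM and E16.5 FL libraries, 5 of 8 genes rose. That fit called 5299 genes in all in either direction, against 5191 in the fit of all 27 libraries. The share of all genes that rose in it was not taken, so 5 of 8 has no background beside it. Cpa3 was at 27.1, 32.1 and 36.8 FPKM in 1w BM and 23.0, 27.4 and 27.3 FPKM in E12.5 FL (log2 difference 0.29 ± 0.371, limma adjusted p = 0.592). Il1rl1 was at 2.34, 3.24 and 3.20 FPKM in 1w BM and 3.12, 3.39 and 3.53 FPKM in E12.5 FL (-0.15 ± 0.236, limma adjusted p = 0.663). Fcer1a, at 0.252, 0.135 and 1.08 FPKM in 1w BM and 0 in E12.5 FL, also missed the threshold (limma adjusted p = 0.145). In the same comparison 8 of 8 neutrophil markers rose, with summed levels of 3813 to 5949 FPKM in 1w BM and 763 to 903 FPKM in E12.5 FL, as did 3 of 5 basophil markers (50.4 to 67.9 FPKM in 1w BM, 12.9 to 18.6 FPKM in E12.5 FL). Their part in the result was not tested.

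In 3w BM against 1w BM Cma1, Tpsb2 and Mcpt4 fell, as did the low Tpsab1, and Cpa3, Hdc, Il1rl1 and Gzmb did not pass the test. In all, 4 of 9 genes fell, where 4.76% of all genes tested did. Fitted and filtered without the Perinatal BM and E16.5 FL libraries, through which alone Tpsab1 met the filter, 3 of 8 fell. That fit called 1444 genes in all in either direction, against 1394 in the fit of all 27 libraries. The share of all genes that fell in it was not taken, so 3 of 8 has no background beside it. Of 11 proteases of related loci tested in the fit of all 27 libraries 1 fell. Cma1 was at 0.434, 1.35 and 1.88 FPKM in 3w BM, a log2 difference of -2.98 ± 0.464 (limma adjusted p = 0.00022). Tpsb2 was at 0.744, 1.5 and 1.04 FPKM in 3w BM (-3.22 ± 0.438, limma adjusted p = 4.39e-05). Mcpt4 was at 0.876, 1.03 and 0.795 FPKM in 3w BM (-3.69 ± 0.364, limma adjusted p = 7.01e-07). Tpsab1 was listed at 0 in all 3w BM libraries (limma adjusted p = 0.00612). These 4 genes lay lower in 3w BM without overlap, as did Fcer1a and 17.3% of all genes tested. Fcer1a was listed at 0 in all 3w BM libraries and missed the threshold (limma adjusted p = 0.254).

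Cpa3 was at 51.7, 43.8 and 48.0 FPKM in 3w BM, above each 1w BM library, with a log2 difference of 0.57 ± 0.371 that missed the threshold (limma adjusted p = 0.375). A fit of the 6 libraries alone called it (limma adjusted p = 0.0168, in a range of 0.0168 to 0.615 over the alternatives). Hdc was at 23.0, 21.7 and 22.6 FPKM in 3w BM and differed by 0.02 ± 0.328 (limma adjusted p = 1), and Gzmb, at 3.83, 2.57 and 2.63 FPKM, by 0.03 ± 0.397 (limma adjusted p = 1). Il1rl1 was at 4.42, 4.01 and 3.67 FPKM, also above each 1w BM library, a log2 difference of 0.36 ± 0.236 (limma adjusted p = 0.376). Of all 13350 genes tested 2319 lay higher in 3w BM without overlap. Of 8 neutrophil markers 4 fell in the same comparison (3267 to 3559 FPKM summed in 3w BM, 3813 to 5949 FPKM in 1w BM), as did 2 of 8 eosinophil markers (13.9 to 20.2 FPKM in 3w BM, 29.1 to 70.7 FPKM in 1w BM), with 1, Ccr3, higher. Of 6 macrophage markers 3 rose (50.3 to 59.7 FPKM summed in 3w BM, 28.7 to 43.6 FPKM in 1w BM). Their part in the result was not tested.

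From 3 to 8 weeks Cma1, Tpsb2, Tpsab1 and Mcpt4 stayed at or below 2.27 FPKM in every library. In 4w BM against 3w BM only Hdc fell (1 of 9, where 4.56% of all genes tested did), at 4.84, 14.5 and 5.36 FPKM in 4w BM, with a log2 difference of -1.49 ± 0.328 (limma adjusted p = 0.00746). The call was lost without 4w BM library 1 (limma adjusted p = 0.0605) or library 3 (limma adjusted p = 0.0502), in a range of 0.00056 to 0.0605 over the alternatives. Library 2 of 4w BM stood apart, being highest for 6 of the 8 genes that vary there, with Cpa3 at 44.9 FPKM against 20.1 and 17.8 FPKM in libraries 1 and 3. Its neutrophil markers summed to 2769 FPKM, against 913 and 987 FPKM in those 2 libraries. Without it, 3 genes fell, Hdc, Cpa3 (-1.29, limma adjusted p = 0.0293) and Il1rl1 (-0.76, limma adjusted p = 0.0461). The genes called in all, in either direction, also went up, from 1239 to 1644. The neutrophil markers, of which 5 of 8 fell, moved with Hdc, and their part in the result was not tested.

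In 6w BM against 4w BM limma called 0 of 9 genes, with 0 at an unadjusted p under 0.05, where 3.94% of all genes tested were called in either direction. In 8w BM against 6w BM it also called 0 of 9, with 1 at an unadjusted p under 0.05, where 8.18% of all genes were called. That gene was Il1rl1, at 4.52, 3.84 and 6.98 FPKM in 8w BM and 3.55, 2.25 and 2.40 FPKM in 6w BM (log2 difference 0.69 ± 0.236, limma adjusted p = 0.0744). Without 6w BM library 1 it was called (limma adjusted p = 0.0472, in a range of 0.0472 to 0.288).

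Over the whole interval from 1 to 8 weeks, 5 of 9 genes fell in 8w BM against 1w BM, where 8.39% of all genes tested did. Fitted and filtered without the Perinatal BM and E16.5 FL libraries, through which alone Tpsab1 met the filter, 4 of 8 fell. That fit called 2559 genes in all in either direction, against 2490 in the fit of all 27 libraries. The share of all genes that fell in it was not taken, so 4 of 8 has no background beside it. Cma1 was at 0.522, 1.18 and 1.03 FPKM in 8w BM (-3.16 ± 0.464, limma adjusted p = 3.82e-05), and Tpsb2 at 0.390, 0.110 and 0.547 FPKM (-3.85 ± 0.438, limma adjusted p = 1.32e-06). Mcpt4 was at 0.241, 0.136 and 0.108 FPKM in 8w BM (-4.40 ± 0.364, limma adjusted p = 1.21e-08), and Tpsab1 was at 0.114 FPKM in library 2 and 0 in the others (limma adjusted p = 0.00492). Hdc, at 9.56, 9.56 and 11.2 FPKM in 8w BM, differed by -1.06 ± 0.328 (limma adjusted p = 0.0259). That call was lost without 8w BM library 1 (limma adjusted p = 0.0704) or 2 (0.0711), or 1w BM library 3 (0.130), in a range of 0.00782 to 0.130. Cpa3 was at 26.6, 21.5 and 30.0 FPKM in 8w BM and differed by -0.29 ± 0.371 (limma adjusted p = 0.656), and Gzmb by -0.07 ± 0.397 (limma adjusted p = 0.951). Il1rl1, at 4.52, 3.84 and 6.98 FPKM in 8w BM, differed by 0.61 ± 0.236 (limma adjusted p = 0.0748) and Fcer1a by 0.28 ± 0.276 (limma adjusted p = 0.546). The comparisons with 1w BM share its libraries. Of the macrophage markers 6 of 6 rose over this interval, with summed levels of 96.5 to 146 FPKM in 8w BM and 28.7 to 43.6 FPKM in 1w BM, and 4 of 8 neutrophil markers fell (2541 to 3024 FPKM in 8w BM). Their part in the result was not tested.

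At E12.5, Cpa3 and Il1rl1 were higher in E12.5 FL than in E12.5 PL (2 of 9 genes, where 33.2% of all genes tested rose), and Gzmb was lower (1 of 9, where 41% fell). Cpa3 was at 23.0, 27.4 and 27.3 FPKM in E12.5 FL and 17.6, 8.62 and 10.6 FPKM in E12.5 PL (1.07 ± 0.371, limma adjusted p = 0.0125). It was not called without E12.5 PL library 2 (limma adjusted p = 0.0683, in a range of 0.00111 to 0.0683). Il1rl1 was at 3.12, 3.39 and 3.53 FPKM in E12.5 FL and 1.88, 0.909 and 0.844 FPKM in E12.5 PL (1.00 ± 0.236, limma adjusted p = 0.00056). Gzmb was at 0.222, 0.439 and 0 FPKM in E12.5 FL and 1.89, 0.749 and 1.51 FPKM in E12.5 PL (-0.95 ± 0.397, limma adjusted p = 0.0355). Its adjusted p ranged from 0.00128 to 0.120 over the 13 alternatives fitted with limma, of which 8 kept the call, the call being lost without a filter and without library 1 or 3 of either group. The shares of the 9 genes called lie below those of all genes. Of the stem and progenitor markers 8 of 10 were higher in E12.5 FL (702 to 727 FPKM summed) than in E12.5 PL (362 to 407 FPKM). Of neutrophil markers 4 of 8 were higher (763 to 903 FPKM in E12.5 FL, 72.4 to 148 FPKM in E12.5 PL), and of cytotoxic lymphocyte markers 3 of 3 tested (22.2 to 25.3 FPKM in E12.5 FL, 3.83 to 7.46 FPKM in E12.5 PL). Their part in the result was not tested.

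E16.5 FL against E12.5 FL is given without a test. Cpa3 and Il1rl1 were lower in every E16.5 FL library than in any E12.5 FL library, as were 24.5% of all genes tested. Cma1, Tpsb2 and Mcpt4 were present in 3 of 3 E16.5 FL libraries and at 0 in E12.5 FL, where 28.4% of all genes lay higher in E16.5 FL without overlap. Both shares of all genes are large, and nothing particular to the 9 genes is read from these orders.

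**Figure D4:**
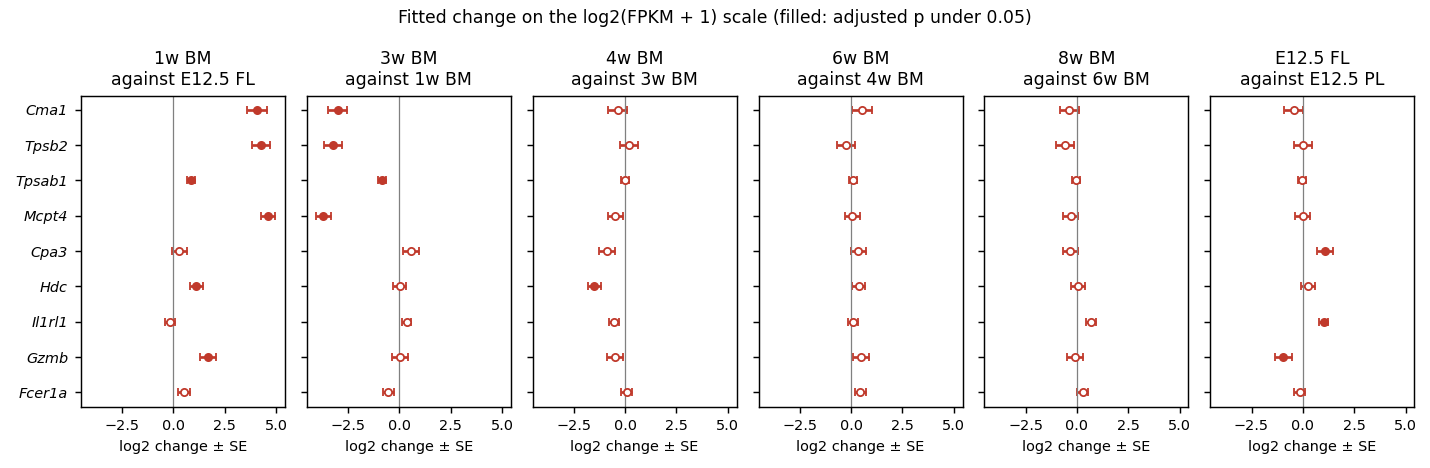
Fitted log2 change (FPKM + 1) with its standard error for each gene in 6 comparisons that use neither Perinatal BM nor E16.5 FL, the group named first minus the second, 3 libraries per group, filled where the limma adjusted p is under 0.05. The standard error draws on the spread over all 27 libraries, Perinatal BM and E16.5 FL included. Cma1, Tpsb2, Tpsab1 and Mcpt4 are filled in 1w BM against E12.5 FL and, on the other side of 0, in 3w BM against 1w BM. Tpsab1 met the filter on low values only through Perinatal BM. Values of genes listed at 0 in a group depend on the pseudocount.

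With the 3 Perinatal BM libraries set aside, the genes did not all vary alike over the other 24. The 4 proteases of the mast cell clusters correlated with each other on the log2(FPKM + 1) scale at Pearson r of 0.801 (Tpsb2 with Tpsab1) to 0.955 (Cma1 with Tpsb2). Cpa3 correlated at 0.854 with Il1rl1, 0.764 with Hdc and 0.604 with Gzmb, and the other pairs of Hdc, Il1rl1 and Gzmb at 0.529 to 0.580. Between the sets r ran from -0.142 (Tpsb2 with Il1rl1) to 0.622 (Mcpt4 with Hdc), so Hdc was not set apart from the proteases. Cma1 with Cpa3 was at 0.120. Fcer1a, near 0 in most libraries, reached at most 0.519, with Gzmb. The sets were named after these values were seen, the 24 libraries fall into 8 groups, and the coefficients are a description. The order of levels over groups differed between the genes. For Cma1, Tpsb2, Tpsab1 and Mcpt4 the second highest mean was in 1w BM, and 1w BM overlapped E16.5 FL for Cma1 and Tpsb2 but not for Mcpt4. For Cpa3 it was in 3w BM (47.8 ± 3.96 FPKM), for Hdc in 1w BM (22.7 ± 6.35) with 3w BM (22.4 ± 0.671) overlapping it, and for Il1rl1 in 8w BM (5.11 ± 1.66) with 3w BM (4.03 ± 0.374) overlapping it. Gzmb and Fcer1a were next highest in 8w BM, at 3.29 ± 2.88 and 0.757 ± 0.299 FPKM, and overlapped 6w BM. Lowest were E16.5 FL for Cpa3, Hdc and Il1rl1, and E12.5 FL for Cma1, Tpsb2, Mcpt4 and Gzmb, where for Tpsb2 and Mcpt4 E12.5 PL was at 0 as well.

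Other genes of mast cells were higher in Perinatal BM too. Of 24 listed, 23 could be tested, and 21 rose and 0 fell in Perinatal BM against E16.5 FL, with a median log2 change of 1.31, where 14.2% of all genes rose and the median of all genes was 0. The list was written with earlier results of these data known, so its direction is not independent evidence. Of the 21, 5 met the filter on low values only through the Perinatal BM or E16.5 FL libraries (Mrgprb1, Mrgprb2, Adora3, Tph1 and Il13) and so had to differ. The largest were Cyp11a1, a steroid-forming enzyme also made by mast cells, with a change of 4.73 ± 0.212 on the log2 scale, and Tph1, which starts serotonin synthesis, with 3.90 ± 0.252. Mrgprb2, the mast cell receptor for basic peptides, and Adora3, an adenosine receptor, changed by 2.52 ± 0.167 and 1.96 ± 0.140. Ltc4s (0.93 ± 0.353) and Enpp3, near 0 in both groups, did not pass. In 1w BM against Perinatal BM 19 of the 23 fell and 0 rose (median -0.98), where 8.97% of all genes fell. The limit on the 5 genes that met the filter only through those libraries holds here too. This count shares the Perinatal BM libraries and is no independent evidence. Ms4a2, the beta chain of the IgE receptor, was not among them, at 2.86, 3.01 and 3.87 FPKM in 1w BM and 6.32, 5.04 and 3.85 FPKM in Perinatal BM, which overlap.

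**Figure D5:**
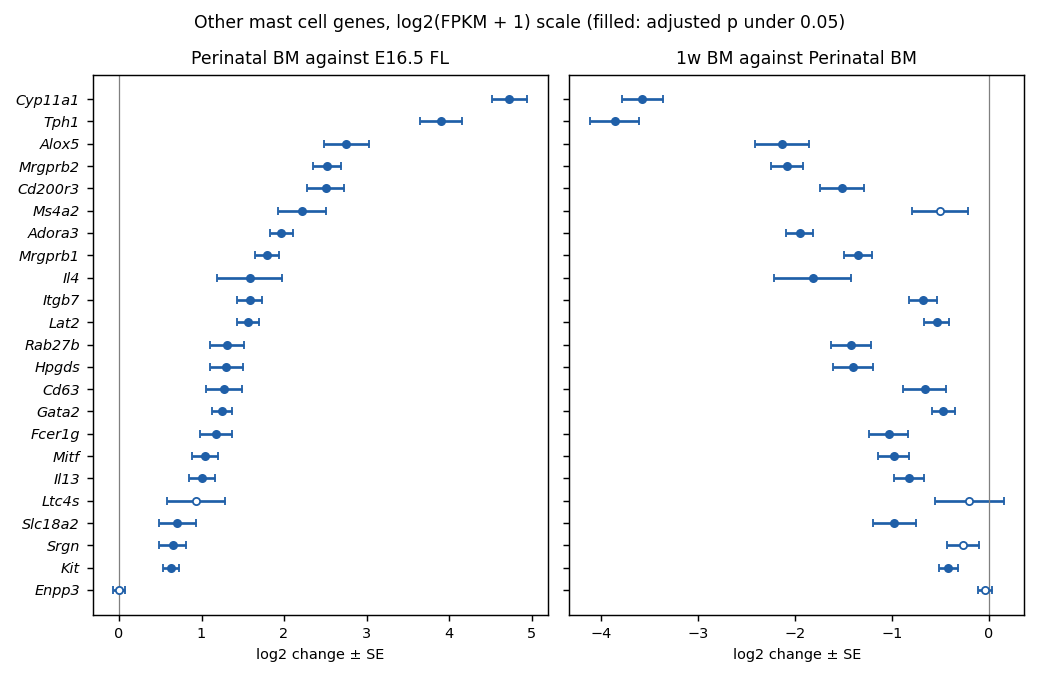
Fitted log2 change (FPKM + 1) with standard error of the 23 other mast cell genes tested, in Perinatal BM against E16.5 FL (left) and 1w BM against Perinatal BM (right), 3 libraries per group, filled where the limma adjusted p is under 0.05. In the left panel 21 are filled and above 0, and in the right panel 19 are filled and below 0. Of the 23, 5 met the filter only through the Perinatal BM or E16.5 FL libraries, which limits both counts.

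The machinery around the 9 genes moved less evenly between Perinatal BM and E16.5 FL. The lists overlap, so their counts are not separate signals. Srgn, Alox5, Hpgds, Gata2 and Mitf, named here and below, were also among the other mast cell genes. Of 11 tested proteases of related loci, 6 rose and 0 fell, of which Mcpt1, Mcpt2 and Tpsg1 met the filter only through Perinatal BM, and among them Mcpt8 with 3.17 ± 0.225 and Prss34 with 3.49 ± 0.232. Of 15 genes of granule assembly and protease activation, 9 rose and 0 fell. Ndst2, which sulphates the heparin chains that hold the proteases, changed by 1.65 ± 0.103, and serglycin itself, Srgn, by 0.65 ± 0.167. Ctsc, the peptidase that activates these proteases, was not called (0.05 ± 0.146). Of 9 genes of histamine and eicosanoid handling 4 rose, with Alox5, the 5-lipoxygenase of leukotriene synthesis, at 2.75 ± 0.277 and the prostaglandin D synthase Hpgds at 1.30 ± 0.204.

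Signalling genes downstream of the receptors mostly did not pass. Of 16 genes of IgE receptor signalling 5 rose and 0 fell, with a median of 0.12. Those called were the receptor chains Ms4a2 (2.22 ± 0.291) and Fcer1g (1.18 ± 0.198) and the adaptors Lat2, Lat and Lcp2. Of these, Ms4a2, Fcer1g and Lat2 were already counted among the other mast cell genes. The kinases Lyn, Syk, Fyn and Btk were not called. Of 6 tested genes of IL-33 receptor signalling only Irak4 rose, by 0.30 ± 0.0935, and the ligand gene Il33 stayed below 0.4 FPKM in Perinatal BM. Of 10 transcription factors 6 rose and 0 fell. Gata2 was at 99.2, 89.4 and 95.5 FPKM in Perinatal BM and 36.3, 39.7 and 41.8 FPKM in E16.5 FL, and Mitf at 4.95, 3.69 and 6.56 FPKM in Perinatal BM and 2.34, 1.83 and 1.58 FPKM in E16.5 FL.

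Markers of other cell types that use some of these genes were read beside them. In Perinatal BM against E16.5 FL 14.2% of all genes tested rose and 14.2% fell. Of basophil markers 5 of 5 rose in Perinatal BM, with summed levels of 97.6, 79.4 and 91.1 FPKM in Perinatal BM and 24.4, 19.4 and 17.6 FPKM in E16.5 FL. Most of these were counted above, Cd200r3 and Il4 among the other mast cell genes and Mcpt8 and Prss34 among the proteases of related loci. Of eosinophil markers 5 of 8 rose, summing to 210, 171 and 39.1 FPKM in Perinatal BM and 30.0, 14.9 and 25.3 FPKM in E16.5 FL. The sum of the eosinophil markers was thus lowest in Perinatal BM library 3, where 8 of the 9 genes described were highest. Among these markers Prg3 and Ear1 met the filter only through the Perinatal BM or E16.5 FL libraries. Of neutrophil markers 3 of 8 rose and 1 fell, summing to 3090, 3067 and 1442 FPKM in Perinatal BM and 1909, 1209 and 912 FPKM in E16.5 FL. Of 6 macrophage markers 1 rose and 3 fell, with a median log2 change of -0.77. They summed to 38.4 to 45.5 FPKM in Perinatal BM and 40.7 to 47.7 FPKM in E16.5 FL. Of 10 stem and progenitor markers 2 rose and 4 fell, summing to 864 to 936 FPKM in Perinatal BM and 751 to 829 FPKM in E16.5 FL. Kit is on this list and on that of the other mast cell genes. The part of these cells in the result was not tested.

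For Gzmb, 10 markers of cytotoxic lymphocytes were read. They summed to 62.8 to 70.7 FPKM in Perinatal BM and 22.7 to 36.8 FPKM in E16.5 FL, and 1 of 3 tested rose. In Perinatal BM 2 of the 10 averaged at least 1 FPKM, Nkg7 at 63.0, 54.3 and 61.2 FPKM, the one that rose, and Klrd1 at 3.18, 6.43 and 4.16 FPKM. Ncr1 was at 0 in all Perinatal BM libraries, Cd3e at 0, 0 and 0.578 FPKM, and Prf1 at 0.626, 0.739 and 0.885 FPKM. For Il1rl1, 8 markers of group 2 innate lymphoid cells summed to 20.1 to 23.6 FPKM in Perinatal BM and 15.4 to 19.0 FPKM in E16.5 FL. Of these, 5 averaged at least 1 FPKM in Perinatal BM, and 2 of 6 tested, Il13 and Il17rb, rose. Il13 was also counted among the other mast cell genes. In 1w BM against Perinatal BM 5 of the 6 fell (8.90 to 10.9 FPKM summed in 1w BM), where 8.97% of all genes tested fell. Of the 6, Il13 and Areg met the filter only through the Perinatal BM or E16.5 FL libraries, so nothing is read from their direction. Klrg1 was at 0 in all Perinatal BM libraries and Il5 at most 0.109 FPKM. The part of these cells in the result was not tested.

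The 10 genes outside the list whose log2(FPKM + 1) profile over the 27 libraries was most like the mean standardised profile of the 9 were Cyp11a1 (r = 0.975), Mcpt2 (0.957), Tph1 (0.953), Ccr8 (0.953), Maob (0.950), Slc6a4 (0.939), Mrgprb2 (0.939), Sytl3 (0.939), Tpsg1 (0.934) and Ndst2 (0.933). Such r rests on the 3 Perinatal BM libraries for most of them, since without these it was 0.738 for Cyp11a1, 0.761 for Mrgprb2 and 0.547 for Ndst2 but 0.383 or less for the other 7. Cyp11a1 was at 45.7, 23.5 and 52.6 FPKM in Perinatal BM and 0.642, 0.472 and 0.363 FPKM in E16.5 FL. Slc6a4, the serotonin transporter, was at 20.7, 12.3 and 31.0 FPKM in Perinatal BM and 0.308, 0.304 and 0.217 FPKM in E16.5 FL. Ccr8, a chemokine receptor, was at 9.08, 5.05 and 16.4 FPKM in Perinatal BM. These 3 shared the order of the mast cell genes, with library 2 lowest and library 3 highest. Mrgprb2 did not, at 7.49, 5.10 and 2.62 FPKM, lowest in library 3.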

How the data were processed

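RNA of purified HSPCs was sequenced in 27 libraries. Per the submitters' processing notes, Trim Galore, FastQC, STAR 2.7 and HTSeq 0.6.1p1 were used with GRCm38. The authors deposited 1 table of FPKM, which was used unchanged. What annotation and tool gave the FPKM, and whether libraries were scaled further, is not given in the sources used here.

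Each gene with at least 1 FPKM in at least 3 libraries was tested (13350 genes) on log2(FPKM + 1) with limma 3.58.1 in R 4.3.3, with 1 mean per group over all 27 libraries, eBayes with a trend, and Benjamini-Hochberg adjustment over all genes tested in a comparison (threshold 0.05). All 9 genes described passed this filter, Tpsab1 only through Perinatal BM, so 8 pass without those libraries. The log scale understates folds of low genes. The calling was tested on simulated data.

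The genes, the gene lists and the comparisons were chosen with earlier results of these data known. The gene lists overlap, so the same gene can be counted in several of them. Beyond the 9, the text names the 10 genes most alike in profile (group mean of at least 5 FPKM, no clone names), up to 4 genes per list and comparison by adjusted p, with some others named for their role after their values were seen, and chromosome neighbours. Gene positions and the promoter windows are RefSeq's for GRCm38.p6; all 9 symbols matched the gene table and 7 the promoter table. Tpsb2 and Tpsab1 are named only. Libraries with the same replicate number correlated at -0.205 to 0.227 in their deviations from the group means, so replicates were treated as unpaired. Python 3.11.15 with pandas 2.3.3 was used for levels, ratios and letter searches. The results were recomputed without a filter, with a filter at 5 FPKM, a pseudocount of 0.1, median-of-ratios scaling, the 6 libraries alone, no E12.5 PL libraries, the replicate number as a block, each library left out in turn and, added after seeing the data, no Perinatal BM or E16.5 FL libraries; ratios of means to Perinatal BM were also taken without each library.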

Additional observations from a re-analysis of the deposited data

How the results depend on the processing

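Of the 7 counts of the 9 genes called, 5 moved by at most 1.5 times under every alternative run. The exceptions were 4w BM against 3w BM (1 gene, Hdc), where leaving out each library in turn gave 0 to 3 and the fit without the Perinatal BM and E16.5 FL libraries, added after seeing the data, gave 2 (Hdc and Cpa3), and 8w BM against 6w BM (0 genes), where leaving out each library gave 0 to 1. All genes called in 4w BM against 3w BM numbered 1239, 383 without 4w BM library 1, 453 without library 3 and 1644 without library 2. Leaving out each library gave 5 to 6 in 1w BM against E12.5 FL, 4 to 4 in 3w BM against 1w BM, 4 to 5 in 8w BM against 1w BM, 2 to 3 in E12.5 FL against E12.5 PL and 0 to 0 in 6w BM against 4w BM. Of the other mast cell genes, 20 to 21 rose in Perinatal BM against E16.5 FL and 18 to 19 fell in 1w BM against Perinatal BM. A filter at 5 FPKM, which tests fewer genes, gave 11 in the last.

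With a pseudocount of 0.1 limma also called Fcer1a in 1w BM against E12.5 FL (adjusted p = 0.0145) and in 3w BM against 1w BM (adjusted p = 0.0440), and Cma1 in E12.5 FL against E12.5 PL (adjusted p = 0.00973); the 6 libraries alone called the last too (adjusted p = 0.0400). No called value changed sign. Same-numbered libraries were not more alike than others (8 of 27 closest to their own number), so no sign of a pairing by number was seen over all groups together. Whether same-numbered E12.5 PL and E12.5 FL libraries share animals is not given, and this check cannot settle it. The replicate block gave 6, 4, 1, 0, 0, 5 and 3 called genes in the 7 comparisons, the same counts as without it (1w BM against E12.5 FL, 3w against 1w, 4w against 3w, 6w against 4w, 8w against 6w, 8w against 1w BM, and E12.5 FL against E12.5 PL), with 21 and 18 of the other mast cell genes. Depth limits the low values: one estimated fragment step was 0.105 to 0.136 FPKM for Cma1, Tpsb2, Tpsab1, Mcpt4 and Fcer1a, whose levels from 3w BM on stand at few such steps in many libraries.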

Other observations

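The granzymes between Ctsg and Gzmb, Gzmc, Gzmd, Gzme, Gzmf and Gzmg, were at 0 in every Perinatal BM library, yet averaged 2.35, 3.91, 0.900, 2.75 and 3.42 FPKM in E12.5 PL. Gzmb was at 1.38 ± 0.579 FPKM there (SD, n = 3). How reads common to these related genes were assigned is not given in the sources used here, and no explanation was tested.

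Mcpt-ps1, a transcribed pseudogene 5134 bases from Cma1, was at 0 in E16.5 FL, at 7.97, 4.29 and 19.0 FPKM in Perinatal BM and at 0.397 FPKM on average in 1w BM. Cma2, the next chymase, averaged 1.66 FPKM in Perinatal BM and 0.0888 FPKM in E16.5 FL. Reads from copies of this family could be counted at one another, which was not tested.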
